A study of Mus musculus with 24 samples.

Results

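Mice that had inhaled combustion particles, 16 in number, were compared as 1 exposed group with 8 mice that had breathed filtered air, out of 24 mice in all. The exposed group joins the 8 mice labelled EPFR lo with the 8 labelled EPFR, and every mouse assigned to these groups was used. EPFR stands for environmentally persistent free radicals, which are long-lived radicals held on the surface of particles formed when organic matter burns incompletely in the presence of metals. All 24 animals were male C57BL/6J mice of 20 weeks by their labels, with no transgene and no gene deleted, and they were exposed for 4 h/d on 5 days. The series text gives a particle mass of 250 µg/m3 for both particle groups, while the study's methods give a somewhat higher mass and an age range rather than 1 age, and by the methods EPFR lo carried fewer radicals per gram than EPFR. No group inhaled particles free of radicals, so particle mass and radical content cannot be told apart in the pooled comparison. The particles were made in a laboratory reactor from a metal nitrate and aromatic fuel, and only males were studied. Blood was drawn after the last exposure, RNA was purified from 200 µL of plasma per mouse, and about 10 ng was assayed for each animal alone.

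MicroRNA (miRNA) are short RNA that guide the Argonaute proteins to messenger RNA, mostly by pairing of the seed, bases 2 to 8 of the miRNA, with the target. In blood plasma they travel inside extracellular vesicles such as exosomes, in lipoproteins and bound to Argonaute, and they come from blood cells, from the vessel wall and from organs such as liver and muscle. A plasma level therefore sums release from many tissues, and release from more cells cannot be told apart from more RNA per cell. The comparison asks which plasma miRNA differ after inhalation of any of these particles.

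The assay was the NanoString nCounter mouse panel, which ligates DNA tags to miRNA, binds them to color-coded probes and counts single codes with no amplification step. It held 566 mouse miRNA probes, and the counts of these summed to 8418 to 30483 per mouse. A background limit of 34.1 counts was set at 2 SD over the average of the negative controls of all mice. Only 41 miRNA exceeded it on average, and miR-451 alone held 27.5% of all counts. A scaled count below is the raw count times a factor from the positive controls and the housekeeping probes of that mouse. The housekeeping probes had mean raw counts of 11.0 to 17.9, inside the 11.0 to 29.0 of the negative controls, and the scaling factors ran from 0.576 to 1.66. For 4 mice (air mouse 2 and mice 1, 2 and 4 of EPFR lo) no housekeeping probe exceeded background. Red blood cell miRNA led the plasma profile, with miR-451, miR-16 and miR-25 the first by mean raw count, while the miRNA of neurons all lay under background. The deposited raw count table places the columns of replicates 1 to 4 of all groups before those of replicates 5 to 8, while the normalized table lists each group's mice 1 to 8 in order. These groups of columns are called column sets here, and no header says that they were assayed apart. The methods mention several batches without assigning mice to them.

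In exposed mice 9 of the 566 miRNA rose at an adjusted p under 0.05 in edgeR (1.59% of those tested) and 0 fell. At an unadjusted p under 0.05, 29 miRNA (5.12%) were higher and 4 (0.707%) lower. DESeq2 with the same scaling called 11 higher, 8 of the 9 among them, and 0 lower. The calls depend on the scaling, with 0 called when the positive controls alone set it, 0 with the ligation controls as a covariate, and 6 higher and 12 lower with summed counts. Those ligation controls, described further on, had a median of 2172 counts in air and 4966 in exposed mice. The median log2 fold change of all 566 was 0.01. The 9 were miR-1 of heart and skeletal muscle, miR-376a of an imprinted cluster, miR-142-3p of blood cells, miR-21, miR-122 of hepatocytes, let-7i, miR-23a, miR-106b and miR-148a. Their fold changes ran from 2.01 to 3.28. Averaged over all 24 mice, 7 exceeded the background limit, while miR-122 at 33.4 and miR-106b at 33.7 did not. In the air mice alone 5 exceeded it, and miR-1 (air mean raw count 20.5) and miR-142-3p (30.4) did so only through exposed mice. Without EPFR mouse 3 the mean raw count of miR-1 over the remaining mice was 29.8, under the limit.

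The mature sequences of 7 of the called miRNA are shown so that their seeds, in capitals, can be compared, and the 7 seeds all differ. They are from RefSeq for the mouse build GRCm38.p6, and a panel name without an arm was read as its main strand.
let-7i: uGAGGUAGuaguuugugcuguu
miR-106b: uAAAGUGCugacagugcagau
miR-142-3p: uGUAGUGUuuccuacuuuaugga
miR-148a: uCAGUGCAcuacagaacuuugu
miR-21: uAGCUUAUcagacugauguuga
miR-23a: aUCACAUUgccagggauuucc
miR-376a: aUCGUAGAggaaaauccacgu

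These 7 lie on 6 chromosomes. Both miR-142-3p (chr11:87756903-87756925, plus strand) and miR-21 (chr11:86584120-86584141, minus strand) are on chromosome 11, and miR-21 lies within the span of the protein-coding gene Vmp1. The locus of miR-106b (chr5:138165787-138165807, minus strand) lies within Mcm7, a gene of the DNA replication helicase. That of miR-148a (chr6:51269829-51269850, minus strand) lies within a predicted gene, Gm38821. No other annotated gene spans miR-142-3p, let-7i (chr10:122985698-122985719, minus strand), miR-23a (chr8:84208563-84208583, plus strand) or miR-376a (chr12:109723824-109723844, plus strand).

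miR-376a, from the maternally expressed Dlk1-Dio3 cluster, had the highest log2 fold change in this fit, whereas miR-1 led with TMM scaling and miR-142-3p in limma on the deposited normalized counts. Its scaled counts ran from 26.2 to 65.6 in filtered air, with a median of 38.9, and from 17.6 to 546 in exposed mice, with a median of 76.0. The groups overlapped, but 13 of 16 exposed mice lay above the air median and 9 above the highest air mouse. The log2 fold change was 1.71 (standard error 0.37, edgeR adjusted p = 0.00118). The difference lay mostly in replicates 5 to 8, where exposed mice ran from 79.0 to 546 and air mice from 26.2 to 65.6 without overlap, as for 1 of 566 miRNA in that direction (0.177%). Among replicates 1 to 4 the ranges were 17.6 to 73.0 and 29.5 to 39.7. The fitted log2 fold changes were 2.23 and 0.33 in those column sets, and their difference did not pass the test over all miRNA (edgeR adjusted p = 0.684).

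The panel measured 18 other miRNA within 10 kb of miR-376a, with log2 fold changes from -0.18 to 0.22 and 0 called. All 18 had mean raw counts under background, miR-543 at 1 in every mouse, where a change in plasma is understated. Of all 525 miRNA at or under background 2 were called, so 0 of 18 is near that share. The closest relative in sequence shown here, miR-376b, lies beside it and differs from it in 3 of 21 bases, of which 1 is in the seed.
miR-376b: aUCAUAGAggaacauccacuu
Its log2 fold change was -0.08 (standard error 0.28), at a mean raw count of 13.0.

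miR-142-3p is made throughout the blood lineages. Scaled counts were 15.1 to 72.2 in filtered air (median 28.8) and 10.1 to 258 in exposed mice (median 95.0). In 14 of 16 exposed mice the count exceeded the air median, and in 10 it exceeded every air mouse, although EPFR mouse 1 lay below them all. The log2 fold change was 1.58 (standard error 0.35, edgeR adjusted p = 0.00118), and it was 1.45 within replicates 1 to 4 and 1.66 within replicates 5 to 8. The other arm of the same hairpin, miR-142-5p, was among the 10 most abundant miRNA and had medians of 94.1 in air and 89.2 after exposure, a fitted log2 change of 0.03 (standard error 0.32).

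miR-1 is among the most abundant miRNA of heart and skeletal muscle. Its scaled counts were 8.43 to 31.8 in filtered air (median 21.1) and 8.69 to 421 in exposed mice (median 31.3). The value of 421 belongs to EPFR mouse 3, and the next exposed mouse stood at 76.3. In 15 of 16 exposed mice miR-1 lay above the air median, and in 7 it lay above every air mouse. The log2 fold change was 1.55 (standard error 0.34, edgeR adjusted p = 0.00118), but without EPFR mouse 3 it was 0.85 (edgeR adjusted p = 0.168). Of the other 6 muscle miRNA, 5 of them under background, 0 were called, against 1.59% of all miRNA and 2 of the 525 at or under background. miR-133a, which is transcribed together with miR-1, changed in the fit by 0.62 on the log2 scale (standard error 0.28, edgeR unadjusted p = 0.0288). Its scaled medians were 15.3 in air and 16.4 after exposure, with a highest exposed count of 110. The 7 muscle miRNA had a median log2 fold change of 0.15. miR-208a, above background like miR-1, had 0.15 (standard error 0.28).

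**Figure D1:**
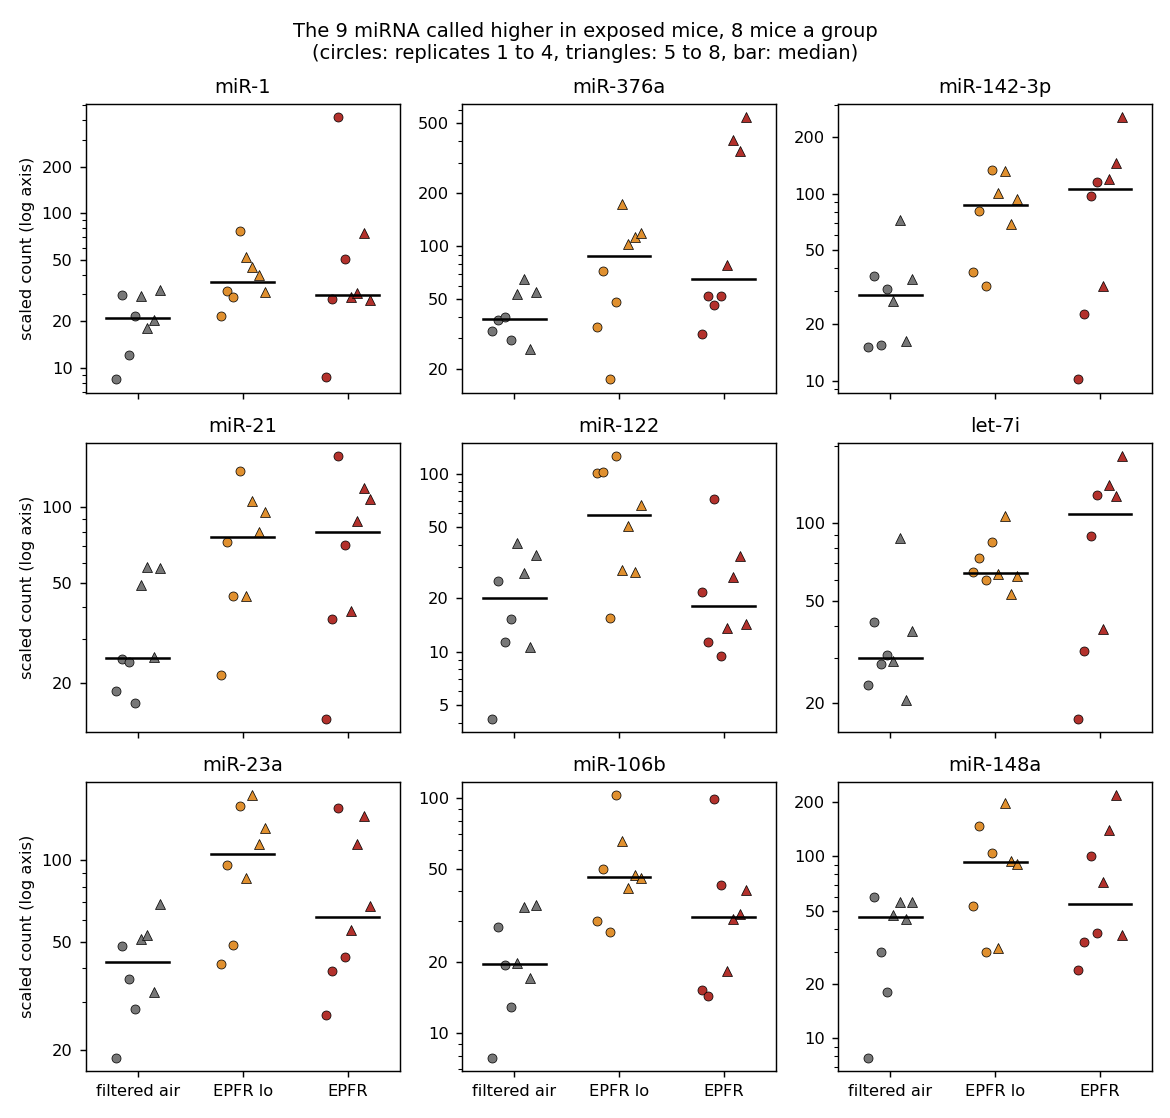
Scaled counts (vertical log axis) of the 9 called miRNA in each of 24 mice, by group, with circles for replicates 1 to 4, triangles for replicates 5 to 8 and a bar at each group's median. The groups overlap in every panel, miR-1 reaches 421 in a single EPFR mouse, and miR-376a is at 79.0 or more in all triangles of both particle groups.

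miR-21, an miRNA of many cell types that is raised in inflamed and stressed tissue, had scaled counts of 16.7 to 58.0 in filtered air (median 25.1) and 14.5 to 160 in exposed mice (median 76.4). It rose by 1.17 on the log2 scale (standard error 0.33, edgeR adjusted p = 0.0442), with 14 of 16 exposed mice above the air median and 10 above the highest air mouse. let-7i, an miRNA of the growth-restraining let-7 family, had 20.5 to 87.4 in air (median 29.9) and 17.4 to 183 after exposure (median 68.8). Its log2 fold change was 1.14 (standard error 0.33, edgeR adjusted p = 0.0442). It lay above the air median in 15 of 16 exposed mice. Its fitted log2 fold change was 1.15 within replicates 1 to 4 and 1.14 within replicates 5 to 8. The difference of let-7i between column sets was -0.01 (standard error 0.54, edgeR adjusted p = 0.996). The median of all 566 miRNA in those column sets was 0.25 and -0.18, and the distance of let-7i from that median was not tested. miR-23a, which is expressed in vessels and muscle and serves as a reference for hemolysis, ran from 18.7 to 68.7 in air (median 42.3) and from 26.8 to 174 after exposure (median 91.0). The log2 fold change of miR-23a was 1.16 (standard error 0.33, edgeR adjusted p = 0.0442), with 13 of 16 exposed mice above the air median.

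miR-148a, an miRNA of liver and of B cells, had scaled counts of 7.83 to 59.7 in filtered air (median 46.4) and 23.9 to 217 after exposure (median 81.3). It rose by 1.14 on the log2 scale (standard error 0.34, edgeR adjusted p = 0.0467), yet only 10 of 16 exposed mice exceeded the air median and 9 exceeded every air mouse. miR-106b, of the miR-17 family that restrains cell cycle inhibitors, had 7.83 to 34.9 in air (median 19.6) and 14.4 to 103 after exposure (median 40.9). Its log2 fold change was 1.01 (standard error 0.30, edgeR adjusted p = 0.0467), with 13 of 16 exposed mice above the air median. For both, the exposed and air ranges overlapped.

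miR-122, the main miRNA of hepatocytes, differed between the particle groups that were pooled. Air mice had scaled counts of 4.22 to 40.8 (median 20.1). EPFR lo mice reached 15.5 to 126.01 (median 58.8), whereas EPFR mice stayed at 9.45 to 71.8 (median 18.03). Over both particle groups the log2 fold change was 1.10 (standard error 0.31, edgeR adjusted p = 0.0442). EPFR lay below EPFR lo by a log2 fold change of -1.33 (standard error 0.33, edgeR adjusted p = 0.0369), and this was the only one of 566 miRNA called between those groups (0.177%). Above the air median lay 7 of 8 EPFR lo mice but 4 of 8 EPFR mice. The 3 highest EPFR lo counts (101, 103 and 126.01) belong to mice 1, 2 and 4, which share the highest scaling factor, 1.66, and whose housekeeping probes did not exceed background. With positive-control scaling these counts were 66.5, 65.4 and 82.6, and the difference between particle groups was -1.17 (edgeR adjusted p = 0.375). Without the 4 mice with housekeeping probes at background, the log2 fold change of miR-122 in exposed over air mice was 0.60 (edgeR adjusted p = 0.995). Among the other 8 called miRNA the difference between particle groups ran from -0.48 for miR-106b to 1.18 for miR-376a, with edgeR adjusted p of 0.430 or more.

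Fits of each particle group against the same 8 air mice gave 4 calls apiece. EPFR lo had miR-122, miR-142-3p, miR-23a and miR-106b higher, and EPFR had let-7i, miR-142-3p, miR-1 and miR-376a higher. miR-21 and miR-148a were called in the pooled comparison and in neither group alone. Their log2 fold changes were 1.14 and 1.20 for miR-21 and 1.23 and 1.04 for miR-148a, in EPFR lo and EPFR respectively. Counted over the 9 miRNA together, 8 of 16 exposed mice lay above the air median in all 9, as did 1 air mouse. EPFR mouse 1 did so in 1. These 9 were called on the same mice, so the count is no separate evidence of a difference.

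**Figure D2:**
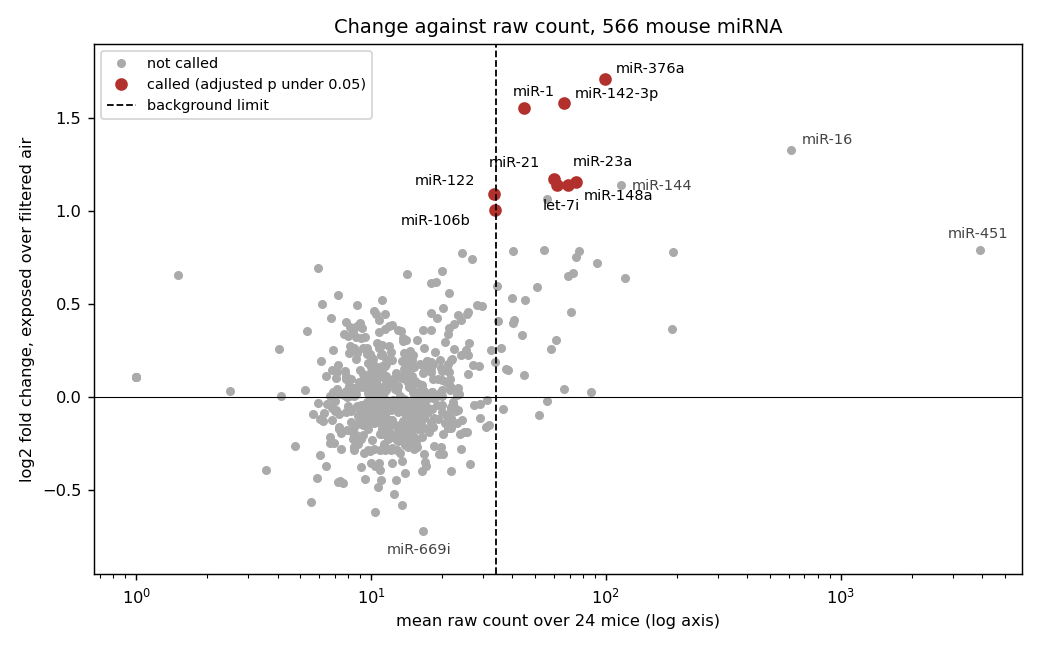
Each point is 1 of 566 mouse miRNA, with its mean raw count over 24 mice (horizontal log axis) and its log2 fold change of exposed over filtered air (vertical axis), and the dashed line marks the background limit of 34.1. The 9 called miRNA, in red, sit at log2 fold changes of 1.01 to 1.71, with miR-122 and miR-106b at the limit.

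The background limit is set on a mean over 24 mice of which 16 were exposed, so a miRNA that is high in exposed mice passes it more easily. Of the 41 that passed, 38 had a positive log2 fold change and the median was 0.60. With the limit applied to the air mice alone, an alternative chosen after seeing the data, 35 miRNA passed, with 30 positive, a median of 0.59 and 5 called. The other 531 had a median of -0.01, with 262 positive and 269 negative.

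Red blood cell miRNA as a list had a median log2 fold change of 0.75 over 11 members, against 0.01 for all 566 and 0.60 for the 41 above background, to which 7 of its members belong, and 10 were positive. Only miR-106b of this list was called, and 6 of 11 passed an unadjusted p under 0.05 in the higher direction, against 5.12% of all miRNA and 19 of the 41. With the column set as a block 3 of the 11 were called, miR-106b, miR-16 and miR-144, against 12 of all 566. miR-16, the second most abundant miRNA, ran from 94.0 to 923 in air (median 202) and from 142.7 to 1748 after exposure (median 785). Its log2 fold change was 1.33 (standard error 0.47, edgeR adjusted p = 0.214), and with the column set as a block it was 1.56 (edgeR adjusted p = 0.0299). miR-144 had 17.9 to 266 in air (median 40.4) and 36.2 to 328 after exposure (median 152), with 15 of 16 exposed mice above the air median (log2 fold change 1.14, standard error 0.36, edgeR adjusted p = 0.0804), and with that block it had 1.33 (edgeR adjusted p = 0.0170). miR-451, made from the same transcript as miR-144, ran from 728 to 6609 in air (median 2039) and from 1295 to 9589 after exposure (median 4903). The log2 fold change of miR-451 was 0.79 with a standard error of 0.62 (edgeR adjusted p = 0.994). The log2 ratio of miR-451 to miR-23a, which is read as a sign of lysed red cells in plasma, was compared too, and by the methods hemolyzed samples had been left out. The ratio was 5.77 ± 0.66 in air (SD, n = 8) and 5.65 ± 0.57 after exposure (SD, n = 16, exact permutation p = 0.656, two-sided). It differed by 0.38 within replicates 1 to 4 and by -0.61 within replicates 5 to 8, and its reference, miR-23a, was itself called higher in exposed mice.

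Leukocyte miRNA had a median log2 fold change of 0.23, against 0.60 for the 41 above background, with miR-142-3p called. All 8 were positive, against 292 of 566 and 38 of the 41, to which 5 of the 8 belong. With scaling to the 100 most abundant miRNA or to summed counts, 3 of the 8 were positive. miR-155 read a raw count of 1 in every mouse, and its fold change reflects the scaling factors alone. miR-223, of neutrophils and platelets, had medians of 69.2 in air and 103 after exposure (log2 fold change 0.72, standard error 0.33, edgeR adjusted p = 0.673). For miR-150, of mature lymphocytes, the medians were 50.02 and 89.9 and the fitted change 0.67 on the log2 scale (standard error 0.33). The platelet list had a median of 0.28 with miR-21 called, and its miR-126-3p, of endothelium and platelets, had 0.26 (standard error 0.31).

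The let-7 family shares 1 seed, and its median log2 fold change was 0.60 over 9 probes. Apart from let-7i none was called, while 5 of 9 had an unadjusted p under 0.05 in the higher direction (5.12% of all miRNA, 19 of the 41 above background) and miR-98 in the lower one. The median of those 41 was also 0.60. The members are shown to compare them with let-7i above.
let-7g: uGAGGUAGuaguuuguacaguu
let-7b: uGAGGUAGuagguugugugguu
let-7c: uGAGGUAGuagguuguaugguu
miR-98: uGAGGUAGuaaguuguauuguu
let-7e: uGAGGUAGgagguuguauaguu
let-7d: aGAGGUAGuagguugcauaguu
They differ from let-7i in 2 of 22 bases for let-7g, 3 for let-7b, 4 for let-7c and miR-98, 5 for let-7e and 6 for let-7d. In the same order their log2 fold changes were 0.79, 0.74, 0.60, -0.58, 0.48 and 0.68, with standard errors of 0.27 to 0.33. let-7f, above background like let-7c, let-7g and let-7i, had 0.05 (standard error 0.31), and the let-7a probe read a raw count of 1 in every mouse. miR-98 lay under background, with medians of 16.1 in air and 12.7 after exposure.

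In the miR-17-92 and miR-106b-25 clusters the median was 0.21 over 11 probes, and 9 were positive. miR-25 and miR-93 come from the same transcript as miR-106b, and miR-93 also shares its seed.
miR-93: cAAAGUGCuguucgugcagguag
miR-25 had medians of 101 in air and 200.3 after exposure (log2 fold change 0.78, standard error 0.37, edgeR adjusted p = 0.727). For miR-93 the medians were 23.9 and 22.5, under background (0.20, standard error 0.27). The probe for miR-106a and miR-17, which also carry this seed, had 0.59 (standard error 0.30). The neighbors of miR-23a, miR-27a and miR-24, had 0.31 (standard error 0.31) and 0.37 (standard error 0.30), and 1 of 5 members of the miR-23, miR-24 and miR-27 list was called, miR-23a itself, against 1.59% of all miRNA and 7 of the 41 above background.

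Tissue lists differed in how much of them the assay could read. In the liver list 2 of 4 were called, against 1.59% of all miRNA. These were miR-122 and miR-148a, which were each called under 2 of 7 scalings, while miR-192 and miR-194 had 0.31 and -0.02 at mean raw counts of 13.7 and 14.1. The 13 miRNA of lung and airway epithelium had a median of 0.14 with 0 called, and only miR-205, of basal epithelium, was above background (0.40, standard error 0.29). That value joins 0.87 in EPFR lo, with 8 of 8 mice above the air median, and -0.29 in EPFR, with 2 of 8. The difference of -1.16 between them had an edgeR adjusted p of 0.125 here, and it was called under 4 of 5 alternatives (TMM, positive-control scaling, DESeq2 and the miRNA above background alone) but not with the replicate block. Among 6 vascular wall miRNA, with a median of 0.25, 0 were called, and miR-221 had -0.62 (standard error 0.29, unadjusted p = 0.0321) at a mean raw count of 10.4. The 7 neural miRNA had a median of -0.01 and the 7 of stress and inflammation 0.09, with miR-21 called in the latter.

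The 2 large clusters stood near the median of all miRNA. The Dlk1-Dio3 list had a median of 0.00 over 54 members, of which 3 were above background and miR-376a alone was called (1 of 54, near the 1.59% of all miRNA), and its miR-136 had 0.79 (standard error 0.30, edgeR adjusted p = 0.304). The Sfmbt2 cluster, an array of near-identical miRNA in an intron of an imprinted gene, whose reads the probes may share, had a median of -0.06 over 33 members, none above background. Its miR-669i had the most negative log2 fold change of all 566, at -0.72 (standard error 0.26, edgeR adjusted p = 0.257), with medians of 24.3 in air and 13.8 after exposure and 1 of 16 exposed mice above the air median. The 4 probes whose targets resemble tRNA fragments had a median of 0.48 with 0 called.

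**Figure D3:**
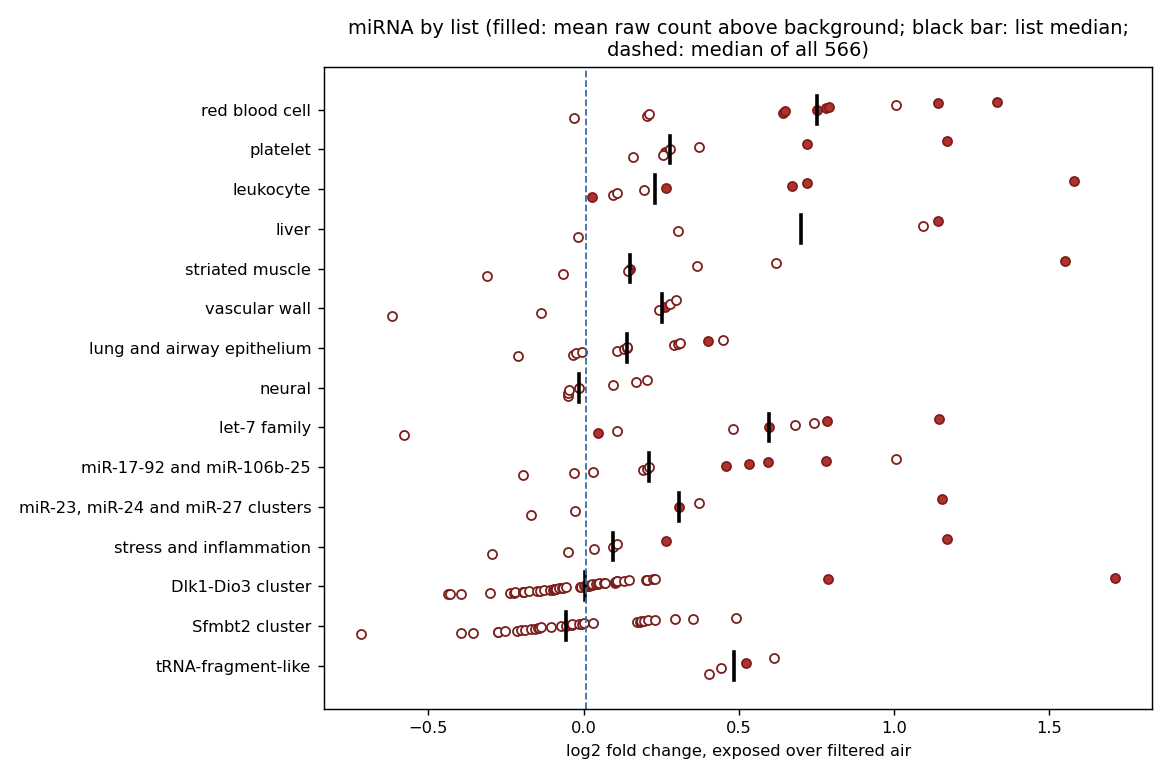
Log2 fold change of exposed over filtered air (horizontal axis) of every member of 15 miRNA lists (rows), filled where the mean raw count was above background, with a black bar at the list's median and a dashed line at the median of all 566. The red blood cell, liver and let-7 medians are at 0.75, 0.70 and 0.60, and the Dlk1-Dio3 and Sfmbt2 medians lie near 0.00.

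Of 7 sample measures 0 passed an adjusted p under 0.05 between exposed and air mice, and the ligation controls came closest. The ligation positive controls, synthetic RNA that report how well tags were ligated, had a geometric mean of 353 to 3988 counts in filtered air (median 2172) and 1018 to 7251 in exposed mice (median 4966). In 14 of 16 exposed mice they lay above the air median and in 10 above every air mouse, a log2 difference of 1.14 (standard error 0.46, two-sided exact permutation p = 0.0144, 0.101 after Benjamini-Hochberg adjustment over 7 sample measures). The difference was 1.17 within replicates 1 to 4 and 1.12 within replicates 5 to 8. After scaling to the positive controls it was 1.26 (exact permutation, adjusted p = 0.0319). The number of miRNA above a mouse's own background limit was 14 to 52 in air (median 26) and 19 to 76 after exposure (median 46), with an exact permutation p of 0.0510 (adjusted 0.178). Summed miRNA counts differed by 0.25 on the log2 scale (exact permutation p = 0.257). Exposed mice had negative-control means of 12.8 to 20.6 counts against 14.0 to 20.9 in air, and the 33 viral probes of the panel had a median log2 fold change of -0.07 with 0 at an unadjusted p under 0.05.

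**Figure D4:**
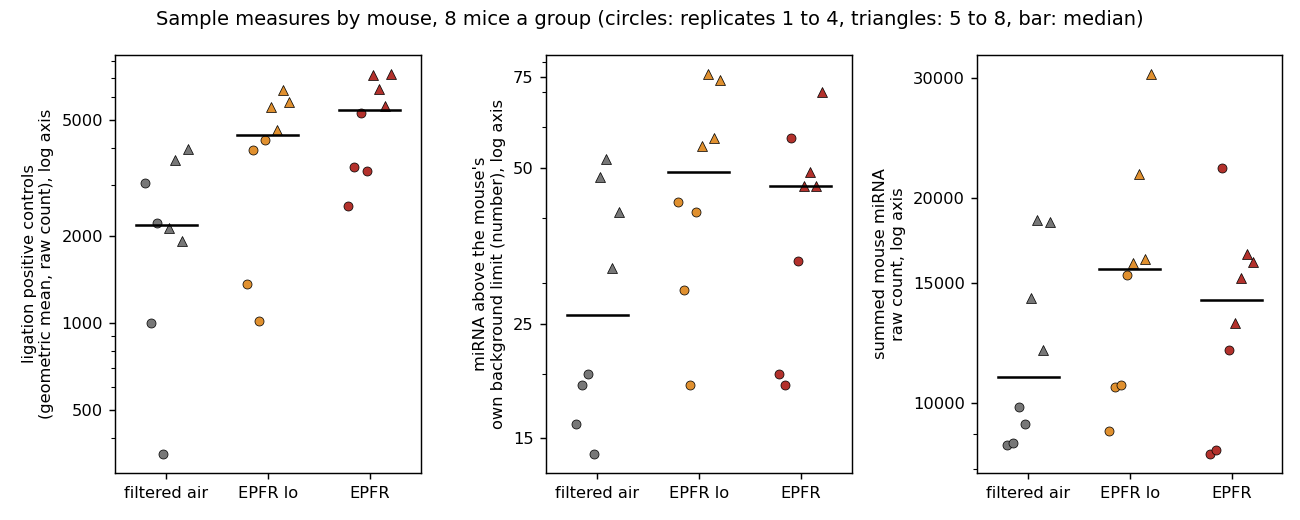
Geometric mean of the ligation positive controls, number of miRNA above the mouse's own background limit and summed mouse miRNA raw count (vertical log axes) in each of 24 mice by group, with circles for replicates 1 to 4, triangles for replicates 5 to 8 and bars at medians. The ligation controls have a median of 2172 for filtered air, 4457 for EPFR lo mice and 5442 for EPFR mice.

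In both column sets each of the 9 called miRNA was higher in exposed mice by the fitted fold change. Within each set alone 2 of the 9 were called. The median log2 fold change of all 566 was 0.25 within replicates 1 to 4 and -0.18 within replicates 5 to 8. Fold changes of the column sets therefore have different baselines, and miR-376a, at 0.33 in replicates 1 to 4, was near the median there. With the column set as a block 12 miRNA were called, all higher, among them all 9 together with miR-16, miR-144 and miR-125b-5p. The 9 calls depended on how the mice were scaled, while the sign of each did not change. With the positive controls alone as scaling 0 miRNA were called, although log2 fold changes stayed at 0.99 to 1.61 and edgeR adjusted p at 0.0694 to 0.163. With the ligation controls as a covariate 0 were called, and the log2 fold changes of the 9 were 0.39 for miR-376a to 1.16 for miR-1 (edgeR adjusted p = 0.297 to 0.999). miR-142-3p was called under 6 of the 7 scalings tried, and miR-122 and miR-148a under 2. Scaling to the 100 most abundant miRNA or to summed counts moved the median of all miRNA to -0.31 and -0.36, and there the calls split into 7 higher and 18 lower and into 6 higher and 12 lower. TMM scaling gave 5 higher and 1 lower, with miR-669i the lower one, and limma on the deposited normalized counts gave 8 higher and 1 lower. Of the 9 calls of the main fit, 5 were among those of TMM scaling and 4 among those of limma.

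Median changes of the lists kept a positive sign under all 7 scalings for 4 of 15 lists: red blood cell, liver, let-7 family and the tRNA-fragment-like probes. Relative to the median of all miRNA under the same scaling, the red blood cell list stood 0.68 to 0.99 higher and the let-7 family 0.55 to 0.85 higher. The 41 miRNA above background stood 0.55 to 0.87 higher by the same measure, nearly the range of the let-7 family.

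**Figure D5:**
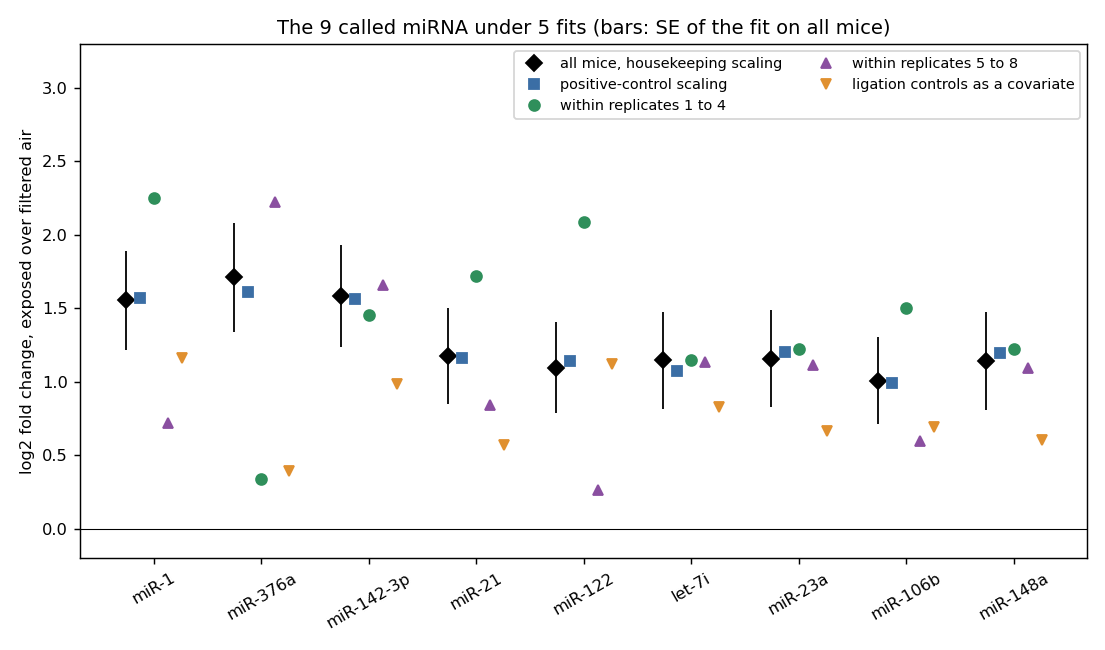
Log2 fold change of exposed over filtered air (vertical axis) of the 9 called miRNA (horizontal axis) in 5 edgeR fits, with standard error bars for the fit on all mice with housekeeping scaling. Every value is above 0, and miR-376a, miR-1 and miR-122 differ most between column sets (0.33 and 2.23, 2.25 and 0.72, 2.09 and 0.27). Of all 566 miRNA 0 passed the test of that difference (housekeeping scaling, smallest edgeR adjusted p = 0.579). The median log2 fold change of all 566 miRNA was 0.25 within replicates 1 to 4 and -0.18 within replicates 5 to 8.

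Two-sided exact permutation of the group labels on log2(scaled count + 1), over all 735471 ways to choose 8 of 24 mice, gave unadjusted p of 0.00603 to 0.0841 for the 9 called miRNA. Among the 9 it was lowest for let-7i and highest for miR-122, and miR-669i (lower, 0.00528) and miR-144 (0.00560), neither called, had smaller exact p than any of them. This test was run on 37 miRNA and compares means of log2 values, so the single high mouse of miR-1 counts less in it (exact p = 0.0169). Leaving out 1 mouse at a time, miR-376a and miR-142-3p stayed called in 24 of 24 fits and miR-1 in 23, while the other 6 stayed called in 8 to 12 of 24.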

How the data were processed

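Raw counts per probe, unscaled nCounter readings gathered in nSolver, were deposited by the authors. Normalized counts were deposited too, as a signal from which each mouse's negative-control geometric mean was subtracted before positive-control scaling and scaling to Actb, B2m, Gapdh and Rpl19. Further deposited tables hold the authors' own fold changes and p-values for all and for selected miRNA and were not used. Raw counts of 566 probes entered edgeR 4.0.16 (R 4.3.3, quasi-likelihood F test) in a model of 2 groups, scaled by the positive-control and housekeeping factors, unfiltered for low counts, with Benjamini-Hochberg adjustment over 566. EPFR lo, EPFR and their difference came from a model of 3 groups. Alternatives used limma 3.58.1, DESeq2 1.42.0, other scalings, blocks, column sets and left-out mice. Replicates are separate mice, and their number limits the precision. A pseudocount of 1 was used on log scales. Named miRNA were all those called, the 10 most abundant, up to 3 per list with the smallest p, miR-451 and miR-23a. Where a list held members above background, only these were considered for its 3. Others were chosen after their values were seen. The groups and lists were chosen with earlier results of these data known. Replicate numbers were not taken as pairs in the main fit. Same-numbered mice of different groups correlated over 0.1 in 9 of 24 pairs (median 0.07). Differently numbered mice were not correlated for comparison, so these values cannot settle whether the numbers pair samples.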

Additional observations from a re-analysis of the deposited data

Results flagged for a closer look

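miR-122 differed between the particle groups joined here, with EPFR below EPFR lo by -1.33 on the log2 scale (edgeR adjusted p = 0.0369, 3-group model). The log2 difference was -1.06 with TMM scaling, -1.17 with positive-control scaling and -1.35 with DESeq2, and not called in any of these (adjusted p = 0.547, 0.375 and 0.938). There the single miRNA called was miR-205 (-1.06, -1.20 and -1.17). The restriction to miRNA above background, which also called miR-205, left miR-122 out beforehand.

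Filtered air mouse 1 had the lowest mean of the negative controls in its group, 14.0 counts, and on the log2 scale its distance to the next mouse was 0.559 of the group's range. This was 1 of 48 groups examined in this way, and chance alone flags about 1 in 20.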

How the results depend on the processing

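The number of miRNA called between exposed and filtered air mice was 9 and ran from 0 to 25 over the alternatives. It was 0 with positive-control scaling (56 at an unadjusted p under 0.05 in edgeR) and 0 with the ligation controls as a covariate (14 unadjusted). It was 25 with scaling to the 100 most abundant miRNA, 18 with summed counts, 20 with DESeq2 size factors and 4 as the mean of both particle groups in the 3-group model. Within replicates 1 to 4 there were 3 and within replicates 5 to 8 there were 2, from fewer mice. Without the mice whose housekeeping probes lay at background there were 3. With 1 mouse left out the count ran from 2 (without EPFR mouse 3, miR-142-3p and miR-376a) to 18 (without filtered air mouse 6). With the replicate number as a block 10 were called, the 9 and miR-144 (1.34, edgeR adjusted p = 0.0192). That block under positive-control scaling, an alternative chosen after seeing the data, gave 14, with 6 of the 9 among them. The cause of these differences was not tested. EPFR against EPFR lo kept 1 call in every alternative, as miR-122 with the replicate block and as miR-205 elsewhere (the restriction to miRNA above background does not test miR-122). Low counts limit the rest, since 525 of 566 miRNA lay at or under background, where a change in plasma is understated.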
